A study of Mus musculus with 6 samples.

Results

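The genes described here are 57 of the 31053 genes counted in single nuclei of mouse kidney cortex. They were chosen by symbol, as every numbered Eph receptor, ephrin, semaphorin, plexin, Slit and Robo gene in the files, with Epha6 left out by the same rule. They comprise 20 semaphorins, 13 Eph receptors, 9 plexins, 8 ephrins, 4 Robo receptors and 3 Slits. The comparison was between 3 knockout libraries, from Podocin-Cre Klf4 fl/fl mice, and 3 control libraries, from Klf4 fl/fl mice. All mice were of the FVB/N strain, and both groups carried the floxed Klf4 alleles. The Podocin promoter drives Cre in podocytes, so Klf4, a zinc finger transcription factor, is deleted there and remains intact in other cells. The labels give neither age nor sex and do not say whether each library came from its own mouse, so p-values measure the spread between these libraries, which may be technical. The question was what podocyte loss of Klf4 does to the expression of these genes in the glomerulus and in the rest of the cortex.

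These families were first known for steering growing axons and vessels. Slits are secreted ligands of Robo receptors, semaphorins signal through plexins, often with neuropilins as co-receptors, and ephrins are membrane-bound ligands of the Eph receptor tyrosine kinases. In the kidney, Slit2 and Robo2 restrict the site of ureteric bud outgrowth, Robo2 is also found at the podocyte slit diaphragm, Sema3a acts on podocytes and endothelium, and Efnb2 with Ephb4 marks the arterial and venous sides of vessels.

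The files held 3919 to 22080 barcodes and 8270961 to 62016616 unique molecular identifiers (UMIs) per library, and 54423 nuclei were kept. Knockout 1 and control 1 stood apart from the others, with 22080 and 21957 barcodes against 3919 to 6079, and with a median mitochondrial share of 1.02% and 2.67% against 0.0870 to 0.163%. Knockout 3 and control 3 shared 74 barcodes, which is 1.39% of the smaller library, and every other pair shared at most 0.689%. Leaving shared barcodes out left the count of member calls over all tested classes at 2. Nuclei were clustered without these 57 genes and Epha6, and clusters were named from marker genes, giving 657 podocyte, 287 parietal epithelial, 1027 endothelial, 163 mesangial and mural, 311 fibroblast and 29900 proximal tubule nuclei among 16 classes. A class name means likeness to that cell type in these markers and no more. The proximal tubule class is a remainder, the 13 clusters in which no other marker list scored 0.3 or more, and 15 proximal tubule markers summed there to 17590 to 22860 CPM (counts scaled per library and class) in knockouts and 16760 to 27070 CPM in controls. All 12 listed podocyte markers, Nphs1 among them, were raised in the podocyte class. The parietal epithelial class rested on 5 of 11 listed markers, among them Ncam1 and Akap12, and it had 49 control nuclei in all. Klf4 itself had 5 UMIs in knockout podocytes and 1 UMI in control podocytes, so its loss was not detectable at this depth.

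Endothelial nuclei were the most frequent site of the highest level, followed by podocytes and the thick ascending limb, which were nearly level. A level is a CPM value, the gene's UMIs divided by all UMIs of the class in that library and scaled up, and it is given as the mean ± SD over the 6 libraries, or over 4 for thin limb and injured tubule, which had under 10 nuclei in controls 2 and 3. Levels are compared for 1 gene across 15 classes and never between genes. Over all nuclei, all 6 libraries had Ddx3y, a Y-linked gene, at 86.4 to 110 CPM and Xist at 0.645 to 1.57 CPM. In all, 44 genes had at least 20 UMIs in their highest class. Of these, 15 were highest in the endothelial class, 8 in podocytes, 7 in the thick ascending limb, 3 in fibroblasts and 3 in injured tubule. For 19 the highest class was at least 2 times the next, and for 6 (Robo2, Robo4, Sema3e, Sema4c, Ephb2 and Epha4) the libraries of the highest class did not overlap those of the next. Such shares were not computed over all genes, so these counts are not read as particular to these families. The other 13 genes had fewer than 20 UMIs in the class where they were highest, and their order is not read: Epha1, Epha5, Epha8, Epha10, Ephb6, Efna2, Efna3, Efnb3, Sema4f, Sema6b, Plxna1, Plxna3 and Plxnb3. Of these, Plxna1, a receptor of class 3 semaphorins with neuropilin, had 8 UMIs in fibroblasts, where it was highest, at 31.4 ± 25.7 CPM.

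**Figure D1:**
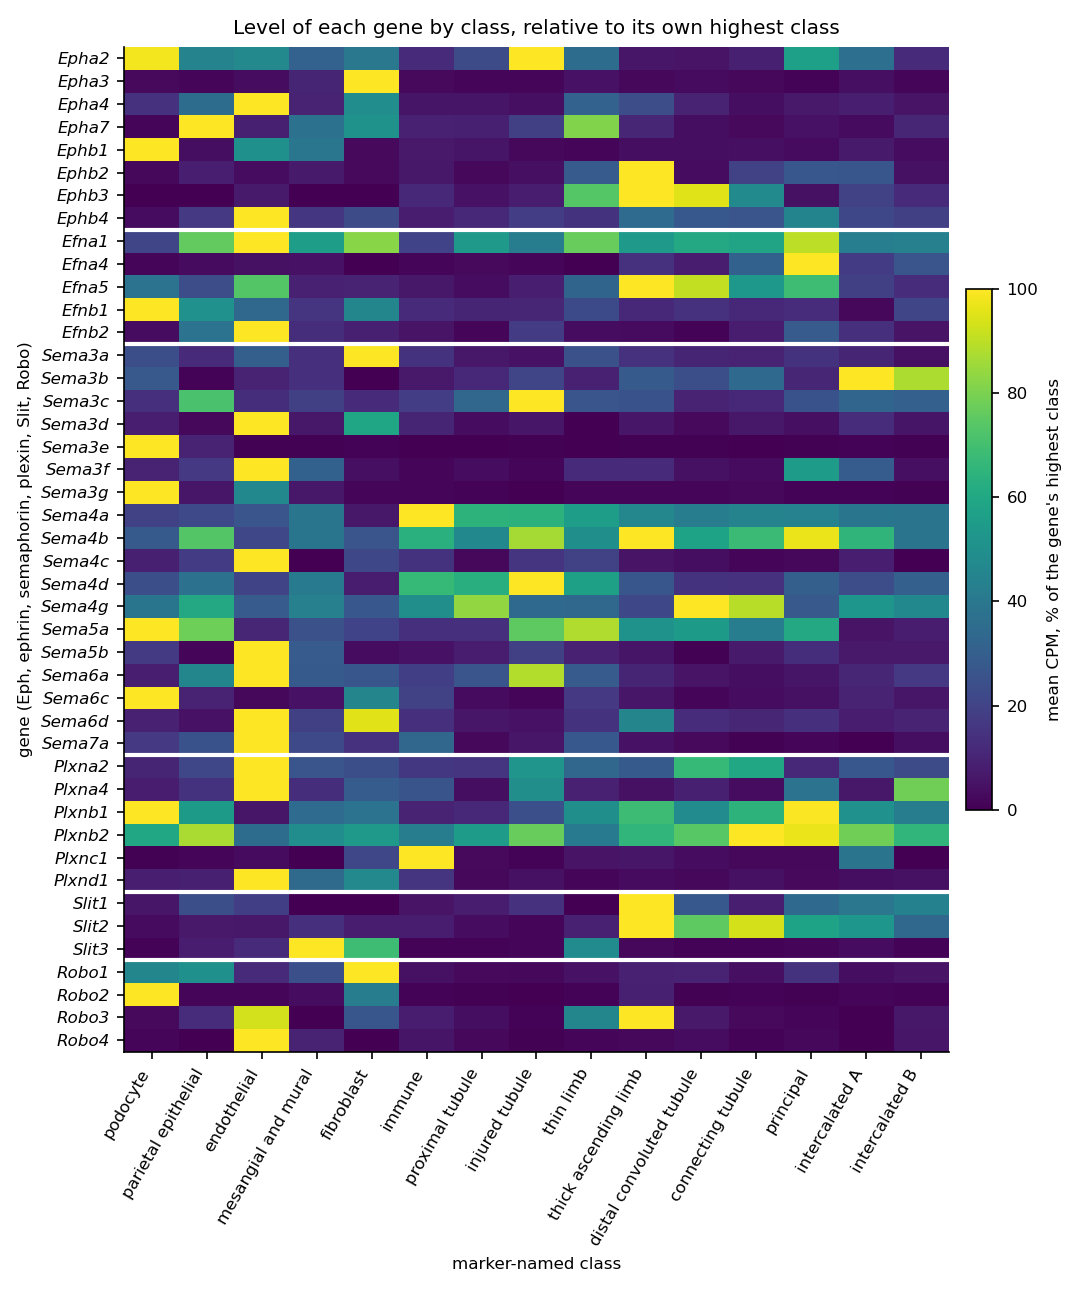
Mean CPM of the 44 genes with at least 20 UMIs in their highest class (rows, grouped by family) in 15 marker-named classes (columns), as a percentage of each gene's highest class. Robo2, Sema3e and Sema3g were brightest in podocytes, Slit2 along the distal nephron, Slit3 in mesangial and mural nuclei, and Robo4, Efnb2 and Plxnd1 in the endothelial class.

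Robo2, a Slit receptor, was highest in podocytes at 3540 ± 539 CPM (2709 to 3986 CPM). Fibroblasts followed at 1488 ± 349 CPM, the thick ascending limb at 311 ± 150 CPM, and the proximal tubule stood at 21.4 CPM. The podocyte libraries did not overlap the fibroblast libraries. Robo1 was highest in fibroblasts at 321 ± 166 CPM, with parietal epithelial nuclei next and podocytes at 148 ± 53.8 CPM, and these 3 classes overlapped. Robo4, the endothelial member of the family, had 54.3 ± 21.5 CPM in the endothelial class, 10.5 times its level in the next class. Robo3 did not separate the thick ascending limb (33.9 ± 13.8 CPM) from the endothelial class (31.6 ± 26.0 CPM).

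The ligand Slit2 was highest in the thick ascending limb at 2122 ± 603 CPM, followed by the connecting tubule at 1984 ± 535 CPM and the distal convoluted tubule at 1599 ± 238 CPM, which overlapped each other. Principal nuclei had 1228 ± 567 CPM, type A intercalated nuclei 1116 ± 150 CPM and type B intercalated nuclei 718 ± 109 CPM, whereas podocytes had 62.8 ± 33.7 CPM and the proximal tubule 67.4 ± 43.5 CPM. Slit3, also a ligand, was highest in mesangial and mural nuclei at 1239 ± 316 CPM, with fibroblasts, which were high in Robo1 and Robo2 too, at 855 ± 408 CPM and the thin limb at 597 ± 189 CPM. Slit1 was low, at 7.26 ± 4.71 CPM in the thick ascending limb.

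Within the thick ascending limb class, 729 of the 975 Robo2 UMIs lay in 1 small cluster of 127 nuclei led by Nos1 and Pappa2. Nos1 is known as a marker of the macula densa, the salt-sensing cells at the end of this segment. In that cluster Robo2 had 3137, 4521 and 4185 CPM in knockout libraries 1, 2 and 3, and 3398, 3113 and 3192 CPM in control libraries 1, 2 and 3. The other 4 thick ascending limb clusters had 43.7 to 126 CPM, so the cluster's mean of 3591 ± 608 CPM was 50.6 times theirs. Unc5d, a netrin receptor, was likewise higher there (482 ± 188 against 8.21 ± 5.98 CPM). Slit2 was at 2692 ± 602 CPM there and 2090 ± 613 CPM in the other clusters, and Ephb2 was lower there, at 77.7 ± 34.2 against 279 ± 61.5 CPM. Since the 57 genes were left out of the clustering, Robo2 and Slit2 did not define this cluster, but Unc5d could have.

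Among the semaphorins, which are secreted in class 3 and mostly membrane-bound in classes 4 to 7, Sema3e stood out for its podocyte level of 1113 ± 317 CPM. The next class, parietal epithelial nuclei, had 108 ± 115 CPM, and the proximal tubule had 3.68 ± 1.27 CPM. Sema3g was at 248 ± 138 CPM in podocytes and 116 ± 53.7 CPM in the endothelial class, the only 2 classes above 20 CPM, and the libraries of these 2 classes overlapped. Sema5a was at 1198 ± 283 CPM in podocytes, within the spread of the thin limb (1057 ± 440 CPM), parietal epithelial nuclei and injured tubule. Sema6c was also highest in podocytes, at 26.1 ± 25.6 CPM on 25 UMIs. Sema3a, whose protein acts on podocytes and endothelium, was highest in fibroblasts at 101 ± 48.4 CPM, with the endothelial class at 30.7 ± 24.7 CPM and podocytes at 24.2 ± 23.7 CPM. Sema4c, Sema5b and Sema7a were highest in the endothelial class, at 29.7 ± 8.65, 42.6 ± 33.4 and 39.3 ± 19.7 CPM. Sema6a was shared by the endothelial class (446 ± 82.9 CPM) and injured tubule (395 ± 61.4 CPM over 4 libraries). Sema3c was highest in injured tubule at 573 ± 153 CPM over the same 4 libraries, and parietal epithelial nuclei had 410 ± 407 CPM.

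Of the plexin receptors, 3 of 9 were highest in the endothelial class, each with libraries that overlapped those of the next class. Plxnd1, a receptor of Sema3e, had 158 ± 50.7 CPM there and 74.2 ± 39.8 CPM in fibroblasts, with 13.3 ± 12.5 CPM in podocytes. Plxna2 had 395 ± 157 CPM there and Plxna4 557 ± 139 CPM, with 436 ± 134 CPM of Plxna4 in type B intercalated nuclei. Plxnc1, the only class C plexin and a receptor of Sema7a, was highest in immune nuclei at 58.5 ± 43.8 CPM. Plxnb1 and Plxnb2, receptors of class 4 semaphorins, did not separate their first classes, with Plxnb1 at 81.1 ± 39.8 CPM in podocytes and 80.7 ± 37.8 CPM in principal nuclei.

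Of the Eph receptors, Ephb1 was highest in podocytes (265 ± 160 CPM), followed by the endothelial class (133 ± 26.1 CPM) and mesangial and mural nuclei (104 ± 101 CPM). Ephb2 was highest in the thick ascending limb at 266 ± 62.5 CPM, 3.47 times the thin limb. Epha3 was highest in fibroblasts at 310 ± 276 CPM, with libraries from 0 to 700.0 CPM that overlapped those of mesangial and mural nuclei. Ephb4 and its ligand Efnb2 were both highest in the endothelial class, at 111 ± 37.6 and 324 ± 143 CPM. The 2 endothelial clusters differed in Ephb4 without overlap, whereas their libraries overlapped for Efnb2. The cluster of 801 nuclei led by Adgrl4, Emcn and Flt1 had Ephb4 at 171 ± 64.0 CPM, Efnb2 at 268 ± 120 CPM and Efna5 at 65.6 ± 34.3 CPM. The cluster of 226 nuclei led by Eln, Nos3 and Jag1 had Ephb4 at 18.8 ± 20.1 CPM, Efnb2 at 438 ± 238 CPM and Efna5 at 1506 ± 739 CPM. Sema3g was likewise higher in the second cluster, at 228 ± 125 against 49.99 ± 29.72 CPM, whereas Robo4, Sema6a, Sema3d and Ephb1 were higher in the first, with Ephb1 at 212 ± 56.8 against 17.3 ± 12.8 CPM. Efna4 was highest in principal nuclei, at 26.3 ± 18.4 CPM.

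The promoters of Robo2, Sema3e, Sema3g and Ephb1 are shown because these genes were at least 2 times higher in podocytes, the class in which Klf4 was deleted, than in any other class, in the mean over both groups. For Ephb1 the control libraries carry that ratio: its knockout podocytes averaged 126 ± 54.6 CPM and its control podocytes 404 ± 57.5 CPM, with 133 CPM over all endothelial libraries. The same holds for Sema3g, of which no knockout podocyte library reached 2 times the mean over all endothelial libraries. Sema6c, which rests on 25 UMIs, is not shown. Each is the 250 bases before the RefSeq start, on GRCm38.p6, with capitals marking the letters GGGTG or their reverse complement CACCC, the core of the motif that Klf4 binds.
Robo2 (chr16:74411826-74412075, minus strand): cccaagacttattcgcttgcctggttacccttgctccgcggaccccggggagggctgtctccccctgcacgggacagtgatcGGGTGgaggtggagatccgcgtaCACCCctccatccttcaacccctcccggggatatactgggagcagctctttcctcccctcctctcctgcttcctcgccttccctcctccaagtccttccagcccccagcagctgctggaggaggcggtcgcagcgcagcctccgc
Sema3e (chr5:14025026-14025275, plus strand): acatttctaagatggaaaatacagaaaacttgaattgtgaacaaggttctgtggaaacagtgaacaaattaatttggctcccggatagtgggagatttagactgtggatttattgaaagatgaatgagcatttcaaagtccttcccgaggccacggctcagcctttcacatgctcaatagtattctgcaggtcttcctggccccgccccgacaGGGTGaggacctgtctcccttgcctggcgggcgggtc
Sema3g (chr14:31217623-31217872, plus strand): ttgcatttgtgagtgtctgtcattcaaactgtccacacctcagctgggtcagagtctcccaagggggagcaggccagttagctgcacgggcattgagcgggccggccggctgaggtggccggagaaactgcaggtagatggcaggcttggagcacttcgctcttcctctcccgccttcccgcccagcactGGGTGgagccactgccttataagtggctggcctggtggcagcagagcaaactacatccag
Ephb1 (chr9:102354694-102354943, minus strand): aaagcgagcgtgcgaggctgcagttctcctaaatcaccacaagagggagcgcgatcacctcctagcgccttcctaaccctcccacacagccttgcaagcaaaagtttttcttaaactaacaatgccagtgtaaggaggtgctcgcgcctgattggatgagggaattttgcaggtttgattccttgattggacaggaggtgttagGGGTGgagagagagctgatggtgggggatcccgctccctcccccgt
Robo2 held 2 such matches and the other genes 1 each. Either strand of GGGTG was found in 52.0% of 32817 RefSeq promoters of this length and in 75.8% of 66 promoters of the 50 genes of these families that matched the table, and the longer GGGTGNGG in 14.9% and 34.8%. Robo2 has 3 starts in the table and the one shown is the GENCODE start, and the Sema3g window reaches 13 bases past the GENCODE start. No binding was measured here.

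In podocytes no member changed at an adjusted p of 0.05, but Ephb1 and Sema3g were lower in every knockout library than in any control library. In edgeR's quasi-likelihood test with Benjamini-Hochberg adjustment over 1870 genes, 0 of the 7 tested members were called, where 0.267% of all tested genes were. At an unadjusted p under 0.05, 3 members and 8.88% of all genes passed. DESeq2 called 1 member, Ephb1 (adjusted p = 0.0145), and 1.66% of all genes. The libraries of the groups did not overlap for 2 of the 7 members, against 16.5% of all tested genes. The members' median log2 change was -0.23, against -0.01 over all tested genes.

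Ephb1 (ENSMUSG00000032537, chr9:101922128-102354693, minus strand, GRCm38), a receptor for B-type ephrins, had 130, 179 and 69.8 CPM in knockout podocytes 1, 2 and 3, against 467, 392 and 354 CPM in control podocytes 1, 2 and 3. All 3 knockout libraries were below all 3 controls. The fitted log2 change was -1.70 ± 0.33 (SE), with an adjusted p of 0.0857 in edgeR. The change in the pooled endothelial class, the next in order of level, was -0.29 ± 0.30. Ephb1 was called without knockout 1 (log2 -1.85, adjusted p = 0.0087), where 253 of 1924 genes (13.1%) were called, and without both libraries numbered 1 (log2 -1.64, adjusted p = 0.0348).

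Sema3g (ENSMUSG00000021904, chr14:31217860-31230352, plus strand), a secreted semaphorin of podocytes and arterial endothelium, had 100, 195 and 140 CPM in knockout podocytes 1, 2 and 3, against 433, 220 and 402 CPM in control podocytes 1, 2 and 3. The groups did not overlap, although knockout 2 and control 2 came close. The log2 change was -1.43 ± 0.36 (adjusted p = 0.148, edgeR). It was -0.48 ± 0.42 in the endothelial class, and the podocyte change minus the endothelial change was -1.02 ± 0.45 (adjusted p = 0.790). For Ephb1 the same difference was -1.34 ± 0.42 (adjusted p = 0.303, edgeR). Against parietal epithelial nuclei the podocyte difference was 0.257 ± 0.82 for Ephb1 and 2.17 ± 1.245 for Sema3g. Against mesangial and mural nuclei it was 0.376 ± 0.712 for Ephb1 and 0.248 ± 0.868 for Sema3g. None of these differences was called (adjusted p = 0.563 to 0.999, edgeR), so neither fall is read as particular to podocytes.

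Efna5, an A-type ephrin that can also bind Ephb2, went the other way, with 228, 423 and 648 CPM in knockout podocytes 1, 2 and 3, against 230, 220 and 134 CPM in control podocytes 1, 2 and 3. Knockouts 2 and 3 were above all controls, and knockout 1 lay among them. The log2 change was 1.06 ± 0.40 (adjusted p = 0.449, edgeR), and Efna5 was called without knockout 1 (log2 1.41, adjusted p = 0.011). It was also called without both libraries numbered 1 (log2 1.70, adjusted p = 0.0142).

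The genes with high podocyte levels showed no call. Robo2 had 2709, 3951 and 3020 CPM in knockout podocytes 1, 2 and 3, against 3835, 3736 and 3986 CPM in control podocytes 1, 2 and 3, a log2 change of -0.23 ± 0.21 (adjusted p = 0.720, edgeR). Knockout 2 lay among the controls, and the other knockouts below them. Sema3e had 678, 1609 and 1286 CPM in knockout podocytes, against 936, 1036 and 1134 CPM in control podocytes, with a log2 change of 0.21 ± 0.30. Sema5a had 826, 1008 and 1266 CPM in knockout podocytes, against 1104, 1350 and 1634 CPM in control podocytes, with a log2 change of -0.36 ± 0.25. For both the groups overlapped, and the 7th tested member, Robo1, had a log2 change of -0.19 ± 0.41.

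The other 50 members were below the low-count filter in podocytes and are given without a fitted change. Slit2 had 47.5, 32.5 and 19.9 CPM in knockout podocytes, against 85.1, 94.2 and 97.5 CPM in control podocytes. In every class where Slit2 was tested its log2 change was negative, from -0.996 in immune nuclei to -0.145 in the thick ascending limb. In all nuclei together it was -0.43 ± 0.17 (adjusted p = 0.471, edgeR). The lower Slit2 is therefore not read as particular to podocytes. Sema4d, a membrane semaphorin that binds Plxnb1, had 70.1, 16.3 and 19.9 CPM in knockout podocytes, against 92.8, 126 and 244 CPM in control podocytes. Epha2 had 37.5, 65.0 and 69.8 CPM in knockout podocytes, against 18.1, 0 and 24.4 CPM in control podocytes. These genes are given because their groups did not overlap, as was so for 4 of the 17 members below the filter with 20 UMIs or more, Sema4g being the other, and for 11.2% of 5203 such genes. Slit2, Sema4d and Epha2 rest on 23, 31 and 26 UMIs in knockout podocytes and 47, 64 and 9 UMIs in control podocytes. Sema4d passed the filter and was called without knockout 1 (log2 -2.84, adjusted p = 0.0254, edgeR), where 253 of 1924 genes (13.1%) were called. It reached the filter there only in control libraries, the group in which it was higher, so this call lends no support.

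The summed level of 12 podocyte markers was 41870, 59540 and 57790 CPM in knockout podocytes 1, 2 and 3, against 65310, 61560 and 68420 CPM in control podocytes, and 9 of the 12 were lower in knockouts. The 12 endothelial markers summed to 349 to 418 CPM in knockout podocytes and 591 to 675 CPM in control podocytes, with 10 lower and Egfl7 at 0. The 15 proximal tubule markers summed to 2422 to 8651 CPM in knockout podocytes and 5754 to 15710 CPM in control podocytes. The part of these differences in the values of Ephb1, Sema3g, Efna5 and Slit2 was not tested.

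**Figure D2:**
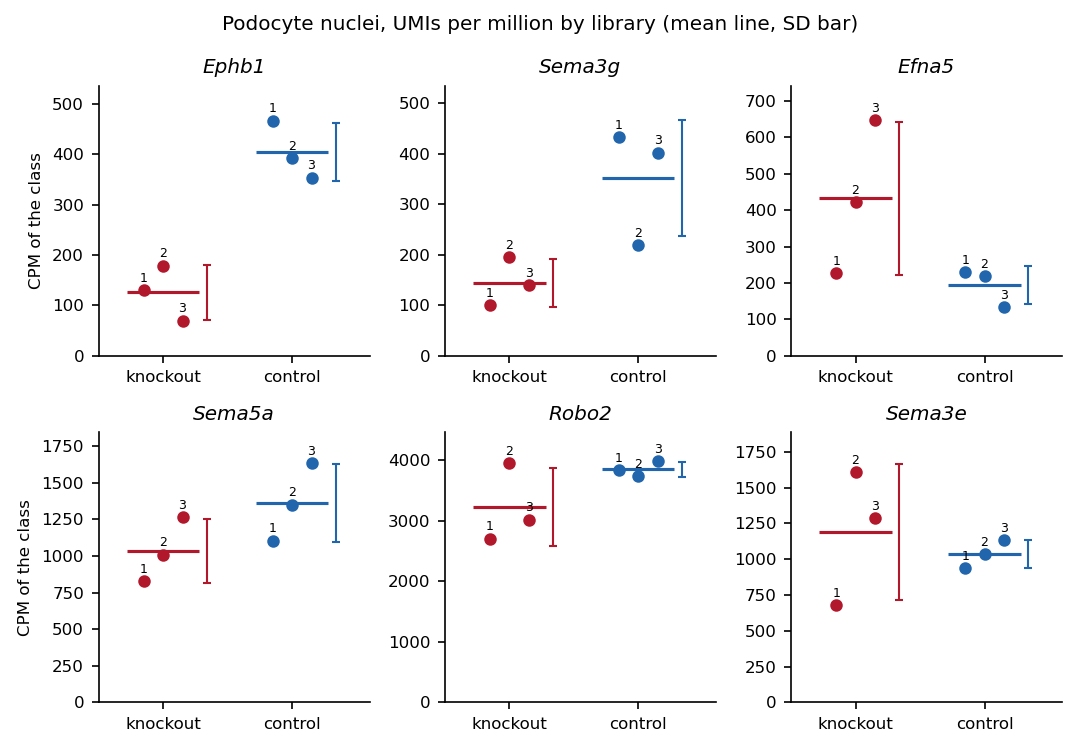
CPM of the podocyte class in each library (points, numbered by library) for the 6 tested members with the smallest p, with the mean as a line and the SD as a bar, knockout left and control right. Ephb1 and Sema3g separated the groups, at 69.8 to 179 against 354 to 467 CPM and 100 to 195 against 220 to 433 CPM, and the other 4 genes overlapped.

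In parietal epithelial nuclei, which line Bowman's capsule, 2 semaphorins rose in knockouts. edgeR's quasi-likelihood test called 2 of the 6 tested members, Sema3c and Sema6a, where 5.80% of 1671 genes were called and 3.89% were called as higher in knockouts. At an unadjusted p under 0.05, 3 members and 24.5% of all genes passed. Only Sema5a was at the low-count filter, 141 CPM in this class, in all 3 control libraries. Sema6a was at it in 0 control libraries, and Sema3c, Sema4d, Efnb2 and Efna5 in 1 each. These members were tested mainly or only because of the knockouts. Counts of calls, signs and non-overlap among the tested members therefore lend no support. Without the filter 35 of 49 members had a positive log2 change, where 69.2% of all genes did. Libraries of the groups did not overlap for 4 of the 6, against 29.4% of all tested genes. The control sums came from 22, 12 and 15 nuclei.

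Sema3c (ENSMUSG00000028780, chr5:17574281-17730268, plus strand), a secreted ligand that signals through neuropilins and plexins, had 488, 1157 and 460 CPM in knockout parietal epithelial nuclei 1, 2 and 3, against 182, 81.8 and 88.6 CPM in control parietal epithelial nuclei. All knockouts were above all controls, and knockout 2 was the highest. The log2 change was 2.27 ± 0.51 (adjusted p = 0.0289, edgeR), on 251 and 12 UMIs in knockouts and controls. The adjusted p was 0.120, 0.106 and 0.133 without control 1, 2 or 3, and 0.082 without knockout 2. It was 0.199 when each cluster took its highest-scoring name (log2 2.04).

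Sema6a (ENSMUSG00000019647), a membrane-bound semaphorin that binds A-type plexins, had 244, 411 and 345 CPM in knockout parietal epithelial nuclei 1, 2 and 3, against 101, 81.8 and 44.3 CPM in control parietal epithelial nuclei. The groups did not overlap. The log2 change was 1.95 ± 0.47 (adjusted p = 0.0364, edgeR), on 121 and 7 UMIs in knockouts and controls. The call was lost without control 1, 2 or 3 or knockout 2 (adjusted p = 0.106 to 0.140), with DESeq2 (0.0914), with doublets kept (0.0512) and with names by highest score (log2 0.65, adjusted p = 0.632).

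Sema5a had 1084, 1730 and 1149 CPM in knockout parietal epithelial nuclei 1, 2 and 3, against 646, 164 and 841 CPM in control parietal epithelial nuclei. The groups did not overlap, and the log2 change was 1.14 ± 0.43 (adjusted p = 0.138, edgeR). With the library number as a block, Sema5a was called as well (log2 1.08, adjusted p = 0.039), and 14.5% of all genes were. Sema4d (log2 0.66 ± 0.47), Efnb2 (1.07 ± 0.72) and Efna5 (0.75 ± 0.75) had adjusted p-values from 0.393 to 0.576.

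Robo2 was below the filter but had 117, 184 and 73.1 CPM in knockout parietal epithelial nuclei 1, 2 and 3, against 0 CPM in each control library. That is 48 UMIs against 0 UMIs, and the group's level of 122 CPM is at least 3.43-fold higher than the 35.6 CPM that 3 UMIs over all control nuclei of the class would give. Robo1 had 127, 205 and 386 CPM in knockout parietal epithelial nuclei, against 121, 81.8 and 44.3 CPM in control parietal epithelial nuclei. Slit2, their ligand, had 68.4, 32.4 and 125 CPM in knockout parietal epithelial nuclei, against 202, 327 and 133 CPM in control parietal epithelial nuclei. These were the 3 members without overlap among the 12 below the filter with 20 UMIs or more, where 18.4% of 3182 such genes had none, and they are given for that reason. Robo1 was called without knockout 1 (log2 1.64, adjusted p = 0.0426, edgeR), as were 22.5% of all genes tested then. It reached the filter in that setting only in knockout libraries, the group in which it was higher, so this call lends no support. The lower Slit2 is not read as particular to this class, because its fitted change was negative in every class where it was tested.

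Markers of other classes moved with these values. Injured tubule markers summed to 2222, 3309 and 3039 CPM in knockout parietal epithelial nuclei, against 586, 572 and 797 CPM in control parietal epithelial nuclei, and all 12 were higher in knockouts. Cycling markers summed to 254, 638 and 355 CPM in knockouts and 40.4, 0 and 44.3 CPM in controls, with all 10 higher. Proximal tubule markers summed to 2120 to 7785 CPM in knockouts and 7838 to 20160 CPM in controls, with 14 of 15 lower. Podocyte markers summed to 2305 to 3175 CPM in knockouts and 1472 to 2790 CPM in controls, with Tcf21 at 0, and the parietal epithelial markers themselves to 2500 to 3947 CPM and 2044 to 4428 CPM. Their part in the values of Sema3c, Sema6a and Robo2 was not tested.

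**Figure D3:**
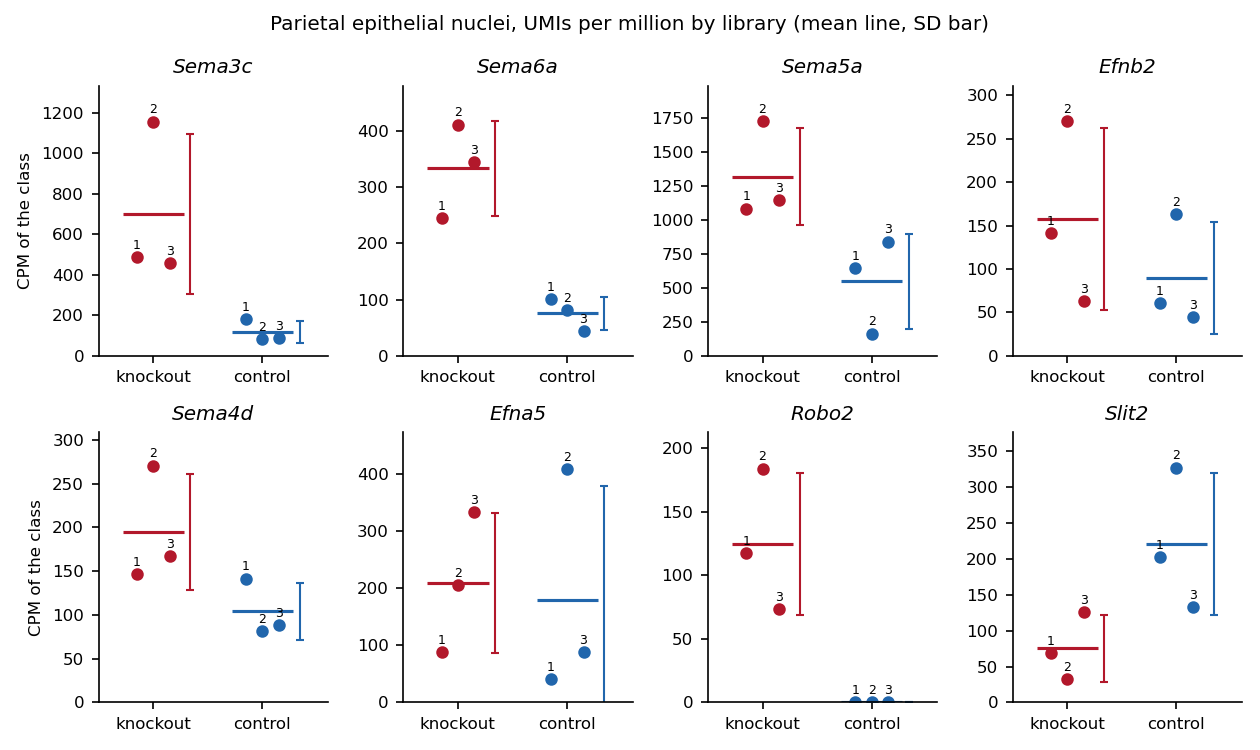
CPM of the parietal epithelial class in each library (points, numbered by library) for the 6 tested members and for Robo2 and Slit2, with the mean as a line and the SD as a bar, knockout left and control right. Sema3c and Sema6a were higher in all 3 knockout libraries, Robo2 was at 0 in all 3 controls, and Slit2 was lower in all 3 knockouts.

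The changes of podocytes and parietal epithelial nuclei were compared in 1 fit with libraries as blocks. The podocyte change minus the parietal epithelial change differed from 0 for 2 of 12 tested members, where 1.25% of 2637 genes were called. These were Sema3c, at -2.61 ± 0.60 on the log2 scale (adjusted p = 0.0251, edgeR), and Robo2, at -7.09 ± 1.63 (adjusted p = 0.0251), whose fitted value is no bound because control parietal epithelial nuclei had 0 UMIs. Sema3c had 80.1, 97.6 and 9.97 CPM in knockout podocytes, against 98.0, 62.8 and 110 CPM in control podocytes, which overlapped. All these podocyte sums lay below the low-count filter of this fit. Sema3c passed it mainly through the knockout parietal epithelial sums, where it was high, so its call and the count of 2 lend no support. Without control 1 or control 3 neither difference was called (adjusted p = 0.104 to 0.309), and without both libraries numbered 1 Robo2 was not called (adjusted p = 0.187). Against the endothelial class 0 of 22 members were called in edgeR, where 0.298% of 4026 genes were, with 3 members at an unadjusted p under 0.05. Against mesangial and mural nuclei 0 of 10 were called, where 0.00% of 2186 genes were, with 0 members at an unadjusted p under 0.05. No other tool was run on these differences.

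In the endothelial class, glomerular and other vessels pooled, edgeR called 0 of 19 tested members and 0.00% of 4273 genes, and DESeq2 called 0 members. At an unadjusted p under 0.05 there were 0 members, against 3.84% of all genes. Robo4 had the smallest p, with 35.0, 52.4 and 33.8 CPM in knockout endothelial nuclei, against 44.0, 75.1 and 85.5 CPM in control endothelial nuclei, which overlapped (log2 -0.86 ± 0.41). Sema4d (log2 -0.64 ± 0.36), Slit2 (-0.75 ± 0.46), Plxna2 (0.43 ± 0.32), Sema3d (0.51 ± 0.39) and Sema5a (0.49 ± 0.42) came next. The vessel genes Efnb2 (-0.27 ± 0.39), Ephb4 (0.40 ± 0.37) and Plxnd1 (-0.35 ± 0.34) had changes no larger than about 1 SE, which does not show that the groups were alike. Sema5b, below the filter, had 17.5, 0 and 33.8 CPM in knockout endothelial nuclei, against 40.9, 81.9 and 81.4 CPM in control endothelial nuclei. It is given as the 1 member of 13 below the filter with 20 UMIs or more whose groups did not overlap, where 8.64% of 4026 such genes had none, and it rests on 10 UMIs in knockouts and 45 UMIs in controls.

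Mesangial and mural nuclei had 3 tested members, of which edgeR and DESeq2 each called 0, where edgeR called 0.00% of 947 genes. At an unadjusted p under 0.05 there were 0 members, against 9.50% of all genes. Slit3, highest in this class, had 1658, 1078 and 1612 CPM in knockout nuclei 1, 2 and 3, against 1108, 897 and 1079 CPM in control nuclei. Knockout 2 lay among the controls, and the log2 change was 0.50 ± 0.34. Sema5a (0.41 ± 0.47) and Slit2 (-0.53 ± 0.47) overlapped between groups. The class held 12 to 56 nuclei per library.

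In fibroblasts, edgeR and DESeq2 each called 0 of 5 tested members, where edgeR called 0.114% of 875 genes, and 2 members passed an unadjusted p of 0.05, against 11.0% of all genes. Epha3, a receptor of A-type ephrins, had 488, 700 and 440 CPM in knockout fibroblasts 1, 2 and 3, against 53.9, 0 and 175 CPM in control fibroblasts. The groups did not overlap, and the log2 change was 2.04 ± 0.48 (adjusted p = 0.217, edgeR). With the library number as a block Epha3 was called (log2 1.95, adjusted p = 0.0276, edgeR), as were 3.66% of all genes. Every control library of Epha3 lay below the low-count filter of this class, and every knockout library above it. Epha3 was thus tested only because of the knockouts, and its non-overlap and its call lend no support. Slit3 had 1029, 1200 and 1269 CPM in knockout fibroblasts, against 162, 746 and 725 CPM in control fibroblasts, also without overlap (log2 1.02 ± 0.36, adjusted p = 0.341). In podocytes and parietal epithelial nuclei 16.5% and 29.4% of all tested genes had no overlap, and in fibroblasts the share was not computed. Robo2 did not separate the groups there (log2 -0.07 ± 0.35). Fibroblast markers summed to 2787 to 4247 CPM in knockout fibroblasts and 1402 to 2089 CPM in control fibroblasts, with Dpt at 0, and cycling markers to 249 to 600.0 CPM and 0 to 187 CPM. Proximal tubule markers summed to 7827, 2333 and 3063 CPM in knockout fibroblasts, against 26420, 6248 and 5540 CPM in control fibroblasts, with 14 of 15 lower. Controls 1 and 2 had 16 and 15 fibroblast nuclei. The part of these marker differences in the values of Epha3 and Slit3 was not tested.

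Over all 13 tested classes, 41 members were tested at least once and 16 in no class. Of 146 tests of a member in a class 2 were called, both named above, where 0.222% of all such tests of genes were, and 18 passed an unadjusted p of 0.05, against 6.85% of all. Slit2, Efna5 and Sema4d each passed the unadjusted threshold in more than 1 tubule class, all from the same 6 libraries. Slit2 had a log2 change of -0.57 ± 0.24 in the connecting tubule and -0.79 ± 0.31 in principal nuclei. Efna5 had 0.75 ± 0.27 in the thick ascending limb and 0.52 ± 0.23 in the connecting tubule. Sema4d had -0.437 ± 0.176 in the proximal tubule and -0.751 ± 0.325 in type B intercalated nuclei. In the thick ascending limb Efna5 had 653, 1062 and 1416 CPM in knockout libraries 1, 2 and 3, against 605, 602 and 623 CPM in control libraries, so all knockouts were above all controls. The share of all genes so separated was not computed in that class. None of these changes of Slit2, Efna5 and Sema4d passed the adjusted threshold in edgeR (adjusted p = 0.677 to 0.867). Sema4b, in principal nuclei, had the largest positive change among tubule tests, at 1.21 ± 0.38, with an adjusted p of 0.709.

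**Figure D4:**
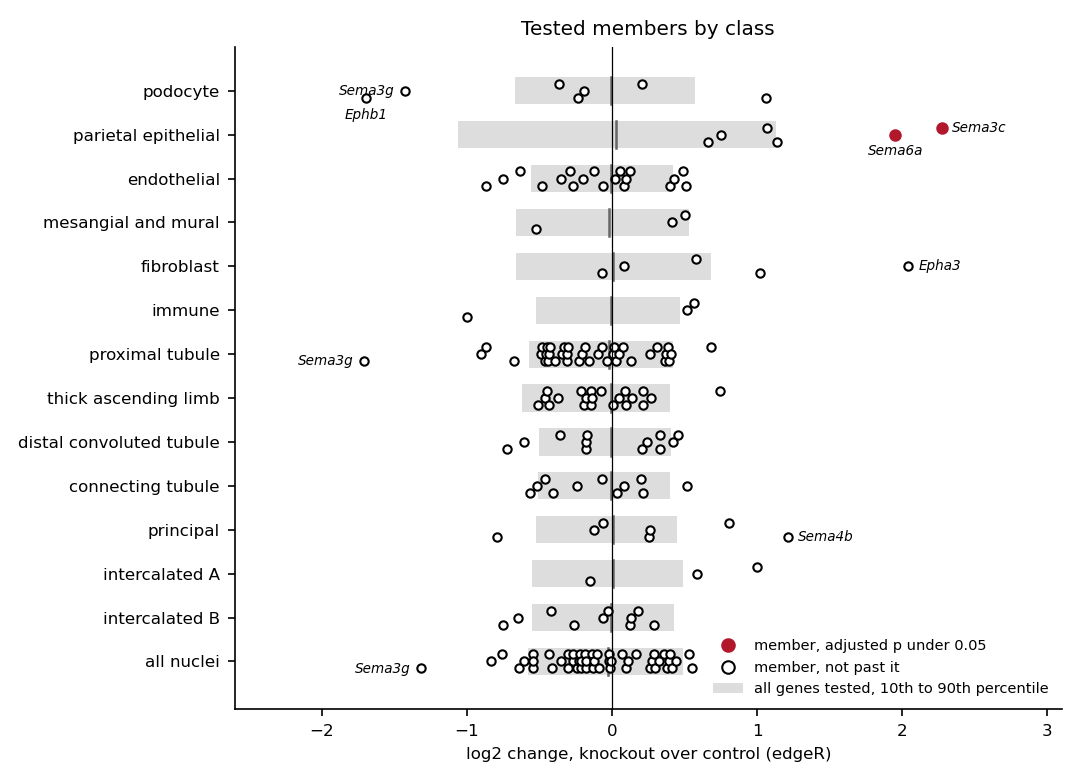
Fitted log2 change, knockout over control, of each tested member (points) in 13 classes and in all nuclei together, beside the range from the 10th to the 90th percentile of all genes tested (grey bars, median as a tick). The 2 filled points, Sema3c and Sema6a in parietal epithelial nuclei, passed an adjusted p of 0.05.

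Summed over all nuclei of a library, without classes, 0 of 49 tested members were called in edgeR, where 0.192% of 16130 genes were. At an unadjusted p under 0.05, 8 members and 9.89% of all genes passed, and DESeq2 called 1 member and 3.05% of all genes. That member was Sema3g, with 4.77, 4.61 and 4.45 CPM in knockout libraries 1, 2 and 3, against 11.3, 9.55 and 12.3 CPM in control libraries. Replicates lay close together and the groups far apart, and the log2 change was -1.32 ± 0.22 (adjusted p = 0.0842, edgeR, and 0.000158, DESeq2). With the library number as a block Sema3g was called (log2 -1.32, adjusted p = 0.0445), as were 1.73% of all genes. Ephb1 had 15.3, 15.5 and 21.3 CPM in knockout libraries, against 20.8, 30.2 and 27.3 CPM in control libraries, which overlapped (log2 -0.64 ± 0.19, adjusted p = 0.286). In the proximal tubule, thick ascending limb and distal convoluted tubule, where its level was low, Sema3g was also lower in every knockout library than in any control library. The share of all genes without overlap was not computed in these classes. It was 16.5% of tested genes in podocytes and 29.4% in parietal epithelial nuclei, so such separation alone is not read as a result. In the proximal tubule Sema3g had 2.23, 0.762 and 0.404 CPM in knockout libraries, against 6.39, 2.57 and 2.73 CPM in control libraries, and knockout 1 came close to control 2. The log2 change there was -1.71 ± 0.68 (adjusted p = 0.675). The groups differ in which proximal tubule clusters hold their nuclei, with 1 cluster of 3846 nuclei at 3035, 644 and 73 nuclei in knockouts against 27, 11 and 56 in controls, and the part of this in the value was not tested. In the thick ascending limb Sema3g had 2 UMIs in knockouts and 17 UMIs in controls. Whether RNA from other nuclei contributes to these low levels was not tested. In such sums fewer nuclei of a type and less RNA per nucleus cannot be told apart. Podocytes made up 1.25 to 1.41% of knockout nuclei and 0.871 to 1.63% of control nuclei, and endothelial nuclei 1.05 to 2.82% and 1.12 to 4.79%.

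Of the 39 listed partner genes of these pathways, 1 passed in 239 tests over the 13 classes, where 0.222% of all tests of genes passed. It was Nrp1, the co-receptor of class 3 semaphorins, in parietal epithelial nuclei, where 16 partners were tested and 5.80% of all genes passed. Nrp1 had 347, 562 and 877 CPM in knockout parietal epithelial nuclei 1, 2 and 3, against 121, 164 and 88.6 CPM in control parietal epithelial nuclei. The groups did not overlap, and the log2 change was 2.25 ± 0.48 (adjusted p = 0.0240, edgeR). Of the control libraries only control 2 was at the low-count filter of 141 CPM. Nrp1 was thus tested mainly because of the knockouts, and its call lends no support to those of Sema3c and Sema6a. Mical2, an oxidoreductase downstream of plexins (log2 2.38 ± 0.73, adjusted p = 0.0786), and Ntn4, a secreted netrin (-1.36 ± 0.44, adjusted p = 0.0900), did not pass. In podocytes 0 of 16 partners were called by edgeR or DESeq2, with 2 at an unadjusted p under 0.05, where 8.88% of all genes were. Srgap1, an intracellular partner of Robo receptors, was among those not called there (log2 0.24 ± 0.23).

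The calls were compared under 15 alternatives. Ephb1 in podocytes kept a log2 change from -1.86 to -1.43 and was called in 4 of them, and Sema3g there ranged from -1.65 to -0.92 and was called in 1. Sema3c in parietal epithelial nuclei ranged from 1.93 to 3.25 and was called in 9 of 14, and Sema6a from 0.65 to 2.73 and was called in 7 of 14. Sema5a there was called in 3 of 14, with a range from 0.82 to 1.53.

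**Figure D5:**
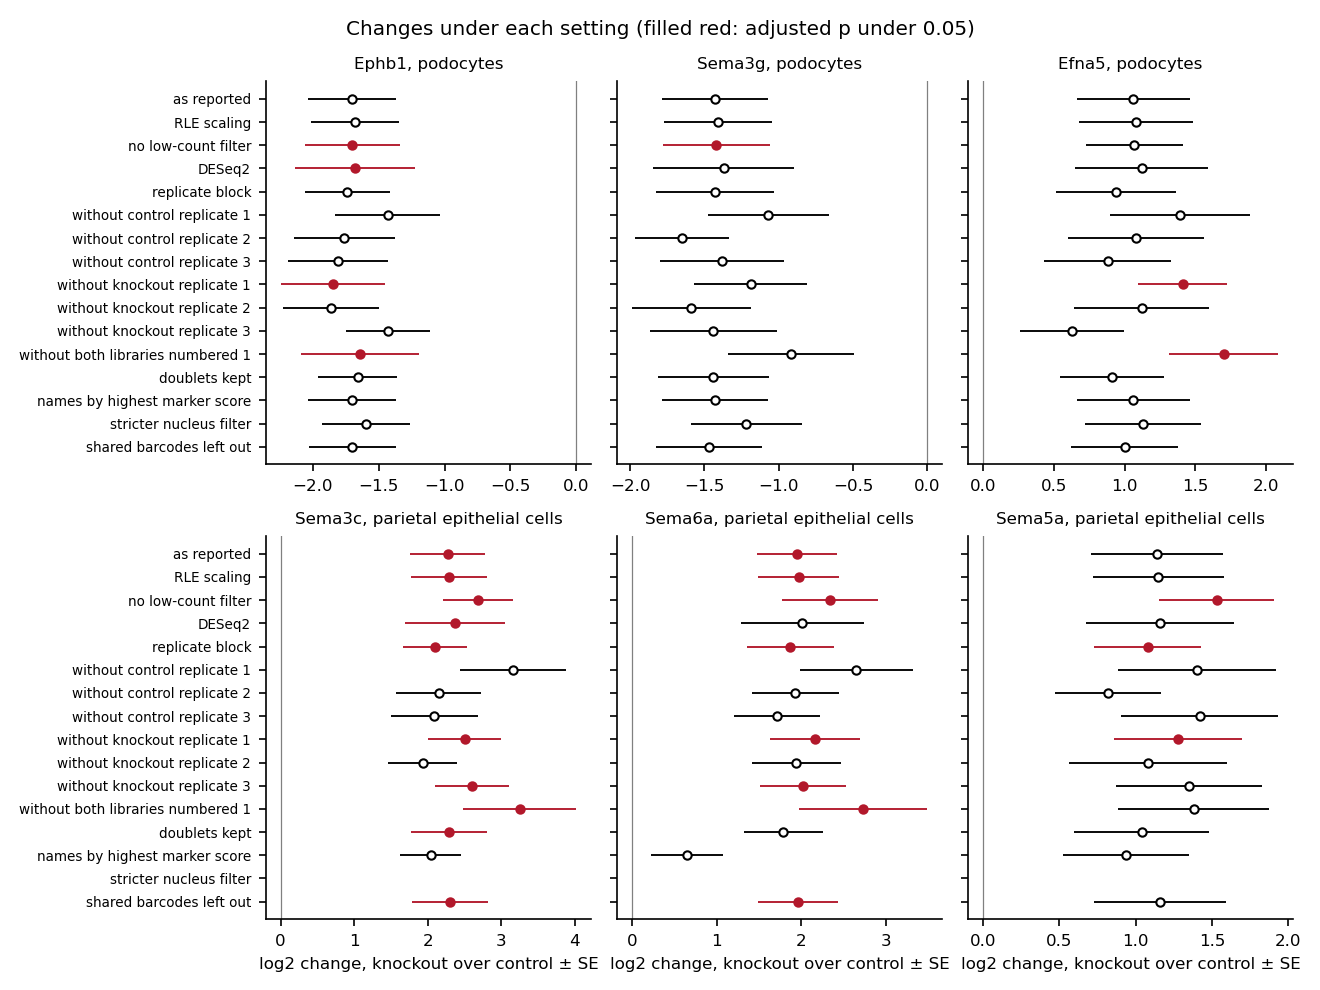
Fitted log2 change ± SE, knockout over control, of 3 genes in podocytes (upper row) and 3 in parietal epithelial nuclei (lower row), as reported and under each alternative. Filled red points passed an adjusted p of 0.05, and no gene changed sign. The stricter nucleus filter left too few parietal epithelial nuclei to be fitted.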

How the data were processed

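Nuclei of perfused mouse kidney cortex were sequenced as 10x Chromium libraries by the authors. Their deposited values are raw UMI counts, and the file headers name Cell Ranger 3.1.0 as the tool that made them. Build mm10 and Seurat, whose role is not given, are named per the submitters' processing notes. Nuclei needed 300 genes or more and no more than 5% mitochondrial UMIs. Scrublet (scanpy 1.11.5) called 0 to 6 doublets per library by its automatic threshold, so the highest scores were removed at 0.8% per 1000 barcodes. Nuclei were clustered with Leiden (igraph 0.11.9) on 3000 variable genes without the members, giving 61 clusters. Of these, 13 in which no other list scored 0.3 were taken as proximal tubule, 13 stayed unnamed, 11 were mixed, and the rest took a name from fixed marker lists where at least 3 markers and a mean log2 ratio of 1.0 were reached. Glomerular endothelial nuclei were too few to test, so all endothelial nuclei were pooled.

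Counts were summed per library and class (at least 10 nuclei) and compared with edgeR 4.0.16 (quasi-likelihood, TMM, low-count filter by group, no covariate), adjusted over all genes of the class at 0.05. Injured tubule and thin limb had too few control nuclei to test, and cycling nuclei mix lineages. DESeq2 1.42.0, other scaling, filters, library blocks, left-out libraries, doublets kept and other naming were alternatives. On simulated counts of 1922 podocyte genes 88.1% of 4-fold and 16.3% of 2-fold changes were called, of 1650 parietal epithelial genes 63.2% and 10.5%, and of 13241 proximal tubule genes 67.3% and 2.08%. The simulation gave every gene the same spread between libraries and drew the libraries independently, with none standing apart. These shares therefore check the fit and do not measure the power of the real tests. Same-numbered libraries deviated together over all nuclei (r = 0.717, 0.393 and 0.457 across genes), so the numbers were taken to pair the libraries, although knockout 2 with control 3 (0.442) and knockout 3 with control 2 (0.427) were as close, and number 1 alone stood apart. Named genes were the members called, the 6 with the smallest p in each glomerular class, up to 4 per class whose level was at least 2 times every other class, and Robo2, Slit2, Sema3a, Plxna1, Ephb1, Efnb2, Sema3g and Plxnd1 whatever their values. Epha2, Robo1 in parietal epithelial nuclei, Sema4b and the further genes beside them were chosen after their values were seen. Members and lists were chosen with earlier results of these data known. Positions are from GENCODE vM21. Of the 57 genes 14, Ephb1, Sema3e, Sema5a and Slit2 among them, overlap a gene on the other strand, and the strand setting of the counting is not given in the sources used here, so their counts are uncertain to that extent. Floors cover counting error only.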

Additional observations from a re-analysis of the deposited data

Results flagged for a closer look

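The change of Sema3c, knockout over control, differed between podocytes and parietal epithelial nuclei by -2.61 on the log2 scale (podocyte minus parietal epithelial, SE 0.60, adjusted p = 0.0251 in edgeR over 2637 genes). Over 7 alternatives the difference ranged from -4.18 to -2.35 and was called in 5. Sema3c passed the low-count filter of this fit mainly through the knockout parietal epithelial sums, where it was high, so its call lends no support.

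The change of Robo2 differed between the same classes by -7.09 (SE 1.63, adjusted p = 0.0251). It ranged from -7.37 to -6.07 over 7 alternatives and was called in 4. Control parietal epithelial nuclei had 0 UMIs of Robo2 in all 3 libraries, so this fitted value is no bound, and the size is better read from the 48 UMIs in knockout nuclei of that class. Injured tubule and cycling markers were also higher in knockout parietal epithelial nuclei, and their part in both differences was not tested.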

How the results depend on the processing

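In podocytes, where 0 members were called, 2 were called with no low-count filter (with 73 of 16771 genes) and 1 with DESeq2 (31 of 1870). Another 2 were called without both libraries numbered 1 (with 177 of 1575 genes), and 0 to 3 with 1 library left out (3 without knockout 1, with 253 of 1924 genes). In parietal epithelial nuclei 4 were called with no low-count filter (with 217 of 15549 genes), 1 with DESeq2 (77 of 1671), 1 with doublets kept (76 of 1692), 0 with clusters named by highest score (0 of 3905), and 0 to 4 with 1 library left out (4 without knockout 1, with 312 of 1384 genes, and 0 without knockout 2, with 3 of 1318). The stricter nucleus filter could not be fitted there. Over all tested classes 6 were called with no low-count filter, 5 without both libraries numbered 1, 1 with doublets kept, 0 with highest-score names, 0 with the stricter nucleus filter, and 0 to 7 with 1 library left out. With the library number as a replicate block, 4 were called over all classes, 3 of 6 in parietal epithelial nuclei (14.5% of all genes) and 1 in all nuclei (1.73% of all genes). In all nuclei DESeq2 called 1 (with 3.05% of all genes), and 2 were called without both libraries numbered 1. Of the partner genes, 6 were called with no low-count filter, 2 with DESeq2, 3 with the block, 4 without both libraries numbered 1, 2 with doublets kept, 0 with highest-score names, 0 with the stricter filter, and 0 to 5 with 1 library left out. Where no share of all genes is given beside a count, as for members and partners over all classes, no shift is read as particular to these genes. The differences between podocytes and parietal epithelial nuclei numbered 0 to 5 with 1 library left out, the 5 without knockout 1, where 101 of 2621 genes were called. Those against endothelial nuclei numbered 0 to 2, the 2 also without knockout 1 (92 of 3893 genes), with 1 without both libraries numbered 1 (65 of 2839 genes). Endothelial and mesangial counts stayed at 0 under the alternatives run. Sema3e in podocytes reversed to -0.01 without knockout replicate 2 and reached 0.50 without knockout replicate 1. The cause of these shifts was not tested. The pooled endothelial class, the omission of shared barcodes and the all-nuclei runs with DESeq2, doublets and stricter filter were chosen after the data were seen. The parietal epithelial class had 49 control nuclei, which limits its values.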

Other observations

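Semaphorins that were high in knockout parietal epithelial nuclei were also high in classes that the design could not test. In injured tubule nuclei Sema3c had 537, 737 and 640 CPM in knockout libraries 1, 2 and 3, against 378 CPM in control 1, the one control library with at least 10 such nuclei. Sema6a had 450, 308 and 422 CPM in knockout libraries, against 399 CPM in control 1, so control 1 lay among the knockouts. Sema4d was lower in all 3 knockouts than in control 1, at 257, 422 and 344 CPM against 567 CPM. Injured tubule nuclei numbered 1124, 206 and 169 in knockout libraries and 22, 3 and 1 in control libraries.

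In cycling nuclei, which mix lineages, Sema3c had 263, 252 and 147 CPM in knockout libraries, against 97.2 and 57.9 CPM in controls 1 and 2. Plxna4, in mesangial and mural nuclei, had 158, 150 and 68.6 CPM in knockout libraries, against 62.2, 0 and 0 CPM in control libraries, below the low-count filter.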
